A study of Arabidopsis thaliana with 24 samples.

Results

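Tryptophan synthesis and its regulation were followed in Arabidopsis thaliana roots through 9 genes, picked by locus identifier from the 40246 features of the table of normalized counts. Of these, 7 encode enzymes: ASA1 (AT5G05730), ASA2 (AT2G29690), ASB1 (AT1G25220), PAT1, also called TRP1 (AT5G17990), IGPS (AT2G04400), TSA1 (AT3G54640) and TSB1 (AT5G54810). The other 2, MYB34 (AT5G60890) and MYB51 (AT1G18570), encode MYB transcription factors. All 9 had reads in all 24 libraries and passed the filter on low values.

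All plants were wild-type Col-0 seedlings, moved when 3 days old to medium with both 0.8 nM brassinolide and 4 µM L-kynurenine (BL+Kyn), with L-kynurenine alone (Kyn), with brassinolide alone (BL) or to mock medium. Brassinolide is a steroid hormone of plants. Kyn inhibits the aminotransferase TAA1 and its relatives, which turn tryptophan into the precursor of auxin. Roots were cut a short distance behind the tip and harvested after 12, 24 or 48 h, with 2 libraries for each of the 12 groups, 24 in all. The labels number the libraries of a group without saying that they came from separate plants, so p-values measure the spread between these libraries, which may be technical. RNA was read by CEL-Seq2, which counts transcripts from their 3′ ends, so levels are compared between groups of libraries and never between genes.

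Plants make tryptophan in plastids from chorismate, the end product of the shikimate pathway. Anthranilate synthase, with an alpha subunit (ASA1 or ASA2) and a beta subunit (ASB1 or its relatives), commits chorismate to this branch and is inhibited by tryptophan. PAT1 adds a phosphoribosyl group, an isomerase (PAI) and IGPS form indole glycerol phosphate, and tryptophan synthase, made of TSA1 and TSB1, completes the amino acid. MYB34 and MYB51 are activators of indole glucosinolate synthesis, a defence pathway that consumes tryptophan, and MYB34 (ATR1) was first known as a regulator of ASA1.

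Reads counted per library ran from 6.32 M to 31.4 M, with a median of 9.73 M. The 9 genes had at least 11 reads in any library, MYB51 being the least counted (11 to 140 reads) and IGPS the most (305 to 1570). The 8 root markers summed to 11174 to 18815 normalized counts per library and none was at 0. The 10 green tissue markers summed to 85381 and 90673.5 in the 2nd libraries of BL and of Kyn at 12 h, against 1517 to 6968 in the other 22 libraries, so results are also given without these 2 libraries. The replicates of BL+Kyn at 48 h lay farthest apart, with a median absolute log2 difference of 0.40 over 18948 genes, against 0.19 to 0.28 in the other 11 groups. In that pair 8 of the 9 genes were lower in replicate 1 than in replicate 2, MYB51 being the exception. Mock at 24 h also had 8 of the 9 lower in replicate 1. The median absolute log2 difference of the 9 was 0.07 there, against 0.60 in BL+Kyn at 48 h.

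In the coordinates of the deposited table (TAIR10), ASA1 spans 1719557 to 1722903, PAT1 5957213 to 5959905, TSB1 22264594 to 22266785 and MYB34 24494691 to 24496351, all on chromosome 5. ASB1 spans 8836835 to 8839549 and MYB51 6389411 to 6391267 on chromosome 1. ASA2 spans 12693871 to 12696975 and IGPS 1531148 to 1533737 on chromosome 2, and TSA1 spans 20223148 to 20225523 on chromosome 3. In ASB1, 64.1% of the windows of read length (50 bases) in the last 500 bases also occur elsewhere in the genome, in 7 other loci of chromosome 1, which are listed at 0 in 23 or all of the 24 libraries. The other 8 genes had no such window. The strand that was counted is not given in the sources used here, so reads of an overlapping antisense transcript could not be told apart from the gene's own.

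MYB51, ASA2 and IGPS were the 3 genes that passed a test in at least 1 time-averaged comparison, and for that reason the 250 bases before their RefSeq starts are shown. The windows were read from TAIR10.1 on the gene's own strand and lie at chr1:6389149-6389398 for MYB51, chr2:12693484-12693733 for ASA2 and chr2:1530898-1531147 for IGPS, each on the forward strand. Capitals mark any match, on either strand, to the BZR1 elements CGTGTG and CGTGCG, the G-box CACGTG, the auxin response element TGTCTC or the W boxes TTGACC and TTGACT.
MYB51: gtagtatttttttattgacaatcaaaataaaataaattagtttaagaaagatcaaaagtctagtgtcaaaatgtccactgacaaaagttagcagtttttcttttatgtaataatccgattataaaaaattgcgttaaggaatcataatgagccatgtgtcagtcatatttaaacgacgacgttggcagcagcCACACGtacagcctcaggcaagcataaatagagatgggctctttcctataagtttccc
ASA2: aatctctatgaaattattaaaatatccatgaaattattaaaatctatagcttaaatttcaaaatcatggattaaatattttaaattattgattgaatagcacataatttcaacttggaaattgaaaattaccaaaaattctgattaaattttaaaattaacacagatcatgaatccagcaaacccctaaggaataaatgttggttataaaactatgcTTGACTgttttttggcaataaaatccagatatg
IGPS: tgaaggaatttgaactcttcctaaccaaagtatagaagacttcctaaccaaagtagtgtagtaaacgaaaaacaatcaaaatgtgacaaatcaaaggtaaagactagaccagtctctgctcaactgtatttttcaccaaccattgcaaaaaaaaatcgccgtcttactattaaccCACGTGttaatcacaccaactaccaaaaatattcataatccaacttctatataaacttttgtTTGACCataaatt
The MYB51 window holds CGTGTG once, on the reverse strand, 53 to 58 bases before the start, and 5.37% of 27443 such windows of protein-coding genes hold it. The IGPS window holds CACGTG (6.49% of windows) and TTGACC (12.2%), and the ASA2 window holds TTGACT (19.1%). Among the 9 genes CGTGTG occurred only upstream of MYB51 and CACGTG only upstream of IGPS, while CGTGCG (1.57% of windows) and TGTCTC (10.9%) occurred upstream of none. TTGACC occurred upstream of 4 (ASB1, PAT1, IGPS and TSA1) and TTGACT upstream of 5 (ASA1, ASA2, ASB1, PAT1 and TSA1). The windows of PAT1 and TSA1 overlap a neighbouring gene (AT5G17980 and AT3G54650), and whether their matches lie within it was not checked. No 2 matches overlapped. At least 1 of the 6 motifs was found for 7 of the 9 genes, against 43.7% of all windows. These are matches of letters only.

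Differences between groups are log2 differences of normalized counts plus 1 from a limma fit over all 18948 genes tested, with Benjamini-Hochberg adjusted p-values, and a gene is called at an adjusted p under 0.05. The comparisons with mock share the same mock libraries, so they are not independent of each other. In these bulk samples fewer cells of a type and less RNA per cell cannot be told apart.

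Averaged over the 3 times, BL+Kyn raised MYB51 and lowered ASA2, while the other 7 genes did not pass the test. That is 1 of 9 genes higher and 1 of 9 lower, where 36.3% of all genes were called, 18.7% higher and 17.6% lower. The median log2 difference was 0.05 over the 9 genes and -0.0014 over all genes tested. With Kyn alone only MYB51 passed the test, 1 of 9 genes where 4.9% of all genes were called. With BL alone no gene passed it by limma, edgeR or DESeq2, and none of the 9 had an unadjusted p under 0.05, where 1.88% of all genes were called.

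**Figure D1:**
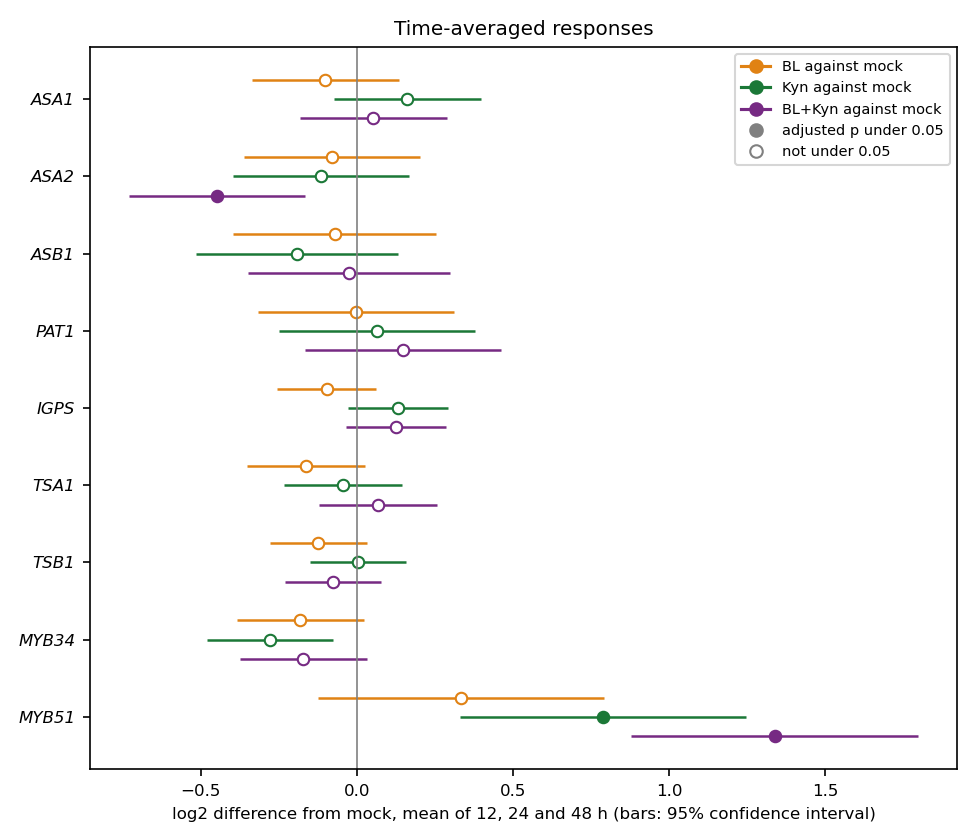
Log2 difference from mock, averaged over 12, 24 and 48 h, for BL, Kyn and BL+Kyn (6 libraries each against 6 mock libraries), with 95% confidence intervals and filled points where the adjusted p was under 0.05. MYB51 lies right of the rest in every treatment, ASA2 lies left of 0 in BL+Kyn, and the intervals of the other enzyme genes include 0.

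Apart from ASA2 in BL+Kyn, no enzyme gene passed the test against mock. In BL+Kyn the 7 log2 differences from mock ran from -0.45 (ASA2) to 0.15 (PAT1), in Kyn from -0.19 (ASB1) to 0.16 (ASA1) and in BL from -0.16 (TSA1) to -0.0030 (PAT1). In BL all 7 were below 0, with none called. The 95% intervals for BL reached no lower than -0.40 and no higher than 0.31, and those for Kyn no lower than -0.52 and no higher than 0.40. The highest group mean of MYB51 was 4.02 times its lowest, against 1.24 times for TSB1 to 1.71 times for ASA1 among the other 8.

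**Figure D2:**
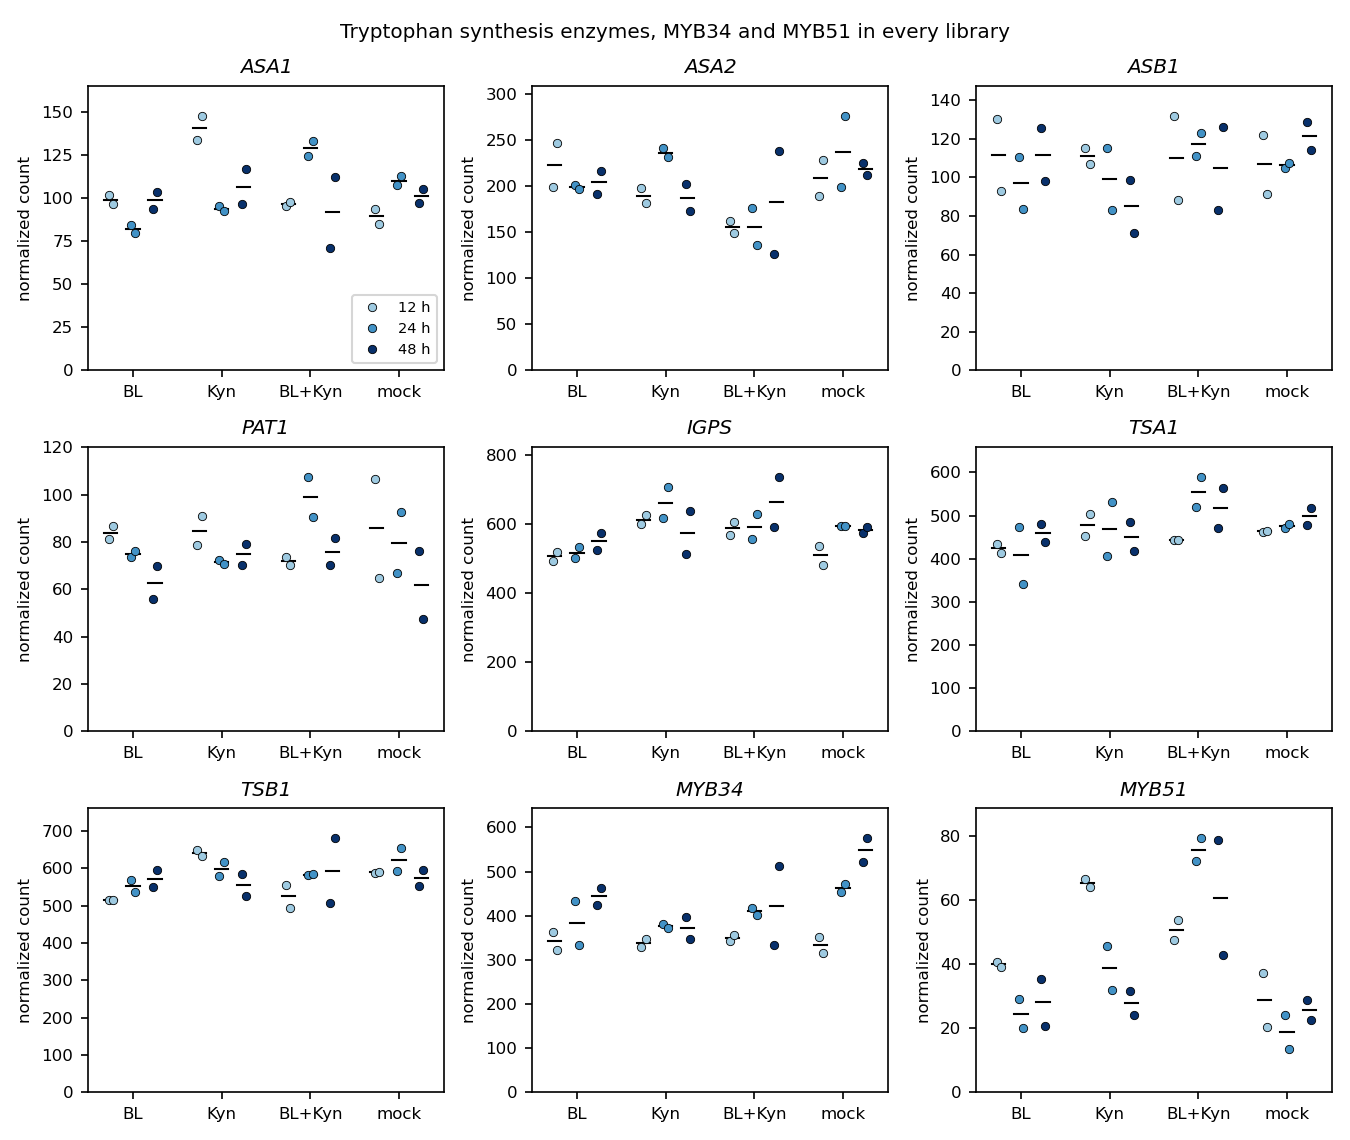
Normalized counts of each gene in every library (points, coloured by time) with the mean of each pair (bar), by treatment, with each vertical axis starting at 0. All 6 MYB51 values in BL+Kyn, 43.0 to 79.4, lie above the highest mock value of 37.3, and 5 of the 6 ASA2 values in BL+Kyn, 126 to 176, lie below the lowest mock value of 189.

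MYB51 rose in BL+Kyn. It had 47.5 and 53.8 normalized counts in BL+Kyn at 12 h, 72.5 and 79.4 at 24 h, and 78.8 and 43.0 at 48 h, against 37.3 and 20.3, 24.2 and 13.6, and 29.0 and 22.6 in mock at these times. BL+Kyn and mock did not overlap at any time, nor over all times together. The mean over 6 libraries was 62.5 ± 16.3 in BL+Kyn and 24.5 ± 8.0 in mock (SD), and the fitted ratio was 2.53 (95% interval 1.84 to 3.47, adjusted p = 0.000115 by limma).

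With Kyn alone MYB51 had 66.7 and 64.2 normalized counts at 12 h, 45.7 and 32.1 at 24 h, and 31.7 and 24.3 at 48 h. At 12 and 24 h both values lay above both mock values of that time, and at 48 h they overlapped with mock. The time-averaged difference of Kyn from mock was 0.79 (SE 0.22, adjusted p = 0.042 by limma), with 5 of 6 libraries above the mock mean of their time. This call was close to the threshold: it ended on leaving out 15 of the 24 libraries in turn, with adjusted p from 0.051 to 0.164, without both libraries rich in green markers (0.096), with no filter on low values (0.080) and by edgeR (0.053). The 15 were every library except both of BL at 24 h, both of BL at 48 h, both of BL+Kyn at 48 h, Kyn at 24 h replicate 2, mock at 12 h replicate 1 and mock at 24 h replicate 1.

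BL alone left MYB51 at 40.9 and 39.1 normalized counts at 12 h, 29.2 and 19.99 at 24 h, and 35.5 and 20.7 at 48 h. These overlap with mock at 24 and 48 h and lie just above it at 12 h, and the time-averaged difference of 0.33 had a 95% interval of -0.13 to 0.79 (adjusted p = 0.62 by limma). BL+Kyn was higher than BL by 1.00 (SE 0.22, adjusted p = 0.0022), and higher than Kyn by 0.55 (SE 0.22, adjusted p = 0.065), which is not a call, although it passed with the replicate number as a block (adjusted p = 0.027) and without BL+Kyn at 48 h replicate 2 (log2 0.69, adjusted p = 0.021). The difference between BL+Kyn and the sum of the single effects was 0.22 (95% interval -0.43 to 0.86, adjusted p = 0.73), so no departure from additivity was detectable for MYB51.

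Time by time, MYB51 in BL+Kyn was above mock by 0.85 at 12 h (adjusted p = 0.23 by limma), by 2.00 at 24 h (adjusted p = 0.0017) and by 1.16 at 48 h (adjusted p = 0.033). It was the only one of the 9 called at 24 h, where 18.2% of all genes were called, and at 48 h, where 23.4% were, and none was called at 12 h, where 5.02% were, by limma, edgeR or DESeq2, with 1 at an unadjusted p under 0.05. The 48 h call ended without BL+Kyn at 48 h replicate 1 (log2 0.73, adjusted p = 0.33), without mock at 48 h replicate 1 (adjusted p = 0.074), without mock at 48 h replicate 2 (adjusted p = 0.18) and with no filter on low values (adjusted p = 0.058). In the authors' deposited table MYB51 had log2 fold changes of 0.58, 1.4 and 0.88 at the 3 times, with adjusted p of 0.30, 2.61e-05 and 0.013. These come from the authors' own fit, so their sizes are not compared with the limma differences. In Kyn MYB51 was above mock by 1.22 at 12 h and 1.03 at 24 h and by 0.11 at 48 h, with adjusted p of 0.17, 0.36 and 0.99 by limma. A test of whether these responses changed between times gave adjusted p of 0.48 for BL+Kyn and 1.00 for Kyn, so a change of either response with time was not shown. Ordered by mean, the groups ran from BL+Kyn at 24 h (75.9 ± 4.9, SD, n = 2) and Kyn at 12 h (65.5 ± 1.7) to mock at 24 h (18.9 ± 7.5), and 9 of the 11 neighbouring pairs of groups in that order overlapped.

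MYB34 had 342 and 356 normalized counts in BL+Kyn at 12 h, 418 and 401 at 24 h, and 333 and 513 at 48 h. In Kyn it had 329 and 348, then 381 and 372, then 396 and 348, and in BL 363 and 323, then 434 and 335, then 424 and 464. In mock it had 352 and 315, then 453 and 471, then 521 and 575. At 12 h the 8 libraries ran from 315 to 363, while at 24 and 48 h every treated library lay below both mock libraries of its time. The treatments share these mock libraries, and the share of all genes with such a pattern was not counted.

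The time-averaged differences of MYB34 from mock were -0.17 in BL+Kyn (adjusted p = 0.18 by limma), -0.28 in Kyn (adjusted p = 0.13) and -0.18 in BL (adjusted p = 0.50), none of them a call. At 48 h they were -0.41, -0.56 and -0.30, with adjusted p of 0.087, 0.15 and 0.69, and the first passed under quantile normalization (-0.49, adjusted p = 0.048). In mock itself MYB34 was 1.64 times as high at 48 h as at 12 h (95% interval 1.29 to 2.09), with an adjusted p of 0.076, and 0.369% of all genes were called in that comparison. None of the 9 was called there by limma or edgeR, 1 (MYB34) had an unadjusted p under 0.05, and DESeq2 called MYB34 alone (adjusted p = 0.015). These results depend on the replicates of BL+Kyn at 48 h, which enter the shared estimate of the spread. Without replicate 1 or without replicate 2 of that group MYB34 was called in mock at 48 h against 12 h (adjusted p = 0.0090 in both cases) and in time-averaged Kyn (0.0286 and 0.0290), and without replicate 2 also in time-averaged BL+Kyn (log2 -0.28, adjusted p = 0.010) and in BL+Kyn at 48 h (-0.72, adjusted p = 0.0020). Kyn at 48 h was likewise called without either (0.0286 and 0.0291). Over the 12 group means MYB34 followed the glucosinolate genes CYP79B2 and CYP79B3, which turn tryptophan into its oxime, with Pearson r of 0.61 and 0.75, and had an r of 0.0024 with ASA1 and -0.38 with MYB51.

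**Figure D3:**
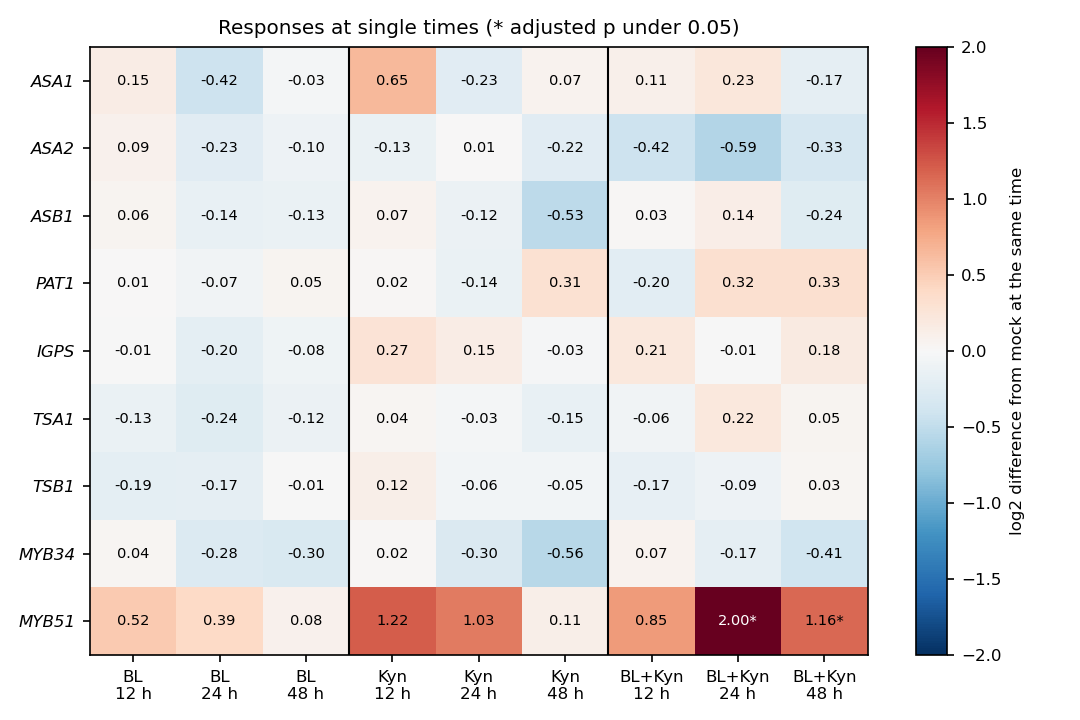
Log2 difference from mock at the same time for the 9 genes in BL, Kyn and BL+Kyn at 12, 24 and 48 h (2 libraries against 2), with an asterisk where the adjusted p was under 0.05. The 2 asterisks are MYB51 in BL+Kyn at 24 h (2.00) and 48 h (1.16), and MYB34 is at or below -0.17 in all 6 columns of 24 and 48 h.

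At the entry to the branch, the alpha subunit gene ASA2 fell in BL+Kyn. ASA2 had 163 and 149 normalized counts in BL+Kyn at 12 h, 176 and 136 at 24 h, and 126 and 239 at 48 h, against 189 and 229, 199 and 276, and 225 and 213 in mock. All BL+Kyn libraries but 48 h replicate 2 lay below the lowest mock library. The time-averaged difference was -0.45 (SE 0.13, 95% interval -0.73 to -0.17, adjusted p = 0.014 by limma), a ratio of 0.73. The call ended without BL+Kyn at 24 h replicate 2 (adjusted p = 0.0511), without BL+Kyn at 48 h replicate 1 (0.0501) and without mock at 24 h replicate 2 (0.0561), and without BL+Kyn at 48 h replicate 2 the difference was -0.60 (adjusted p = 0.00026). At single times it was -0.42, -0.59 and -0.33 at 12, 24 and 48 h (adjusted p = 0.37, 0.085 and 0.33), and the 24 h difference passed without either replicate of BL+Kyn at 48 h (0.0205 and 0.0210), as the 48 h difference did without replicate 2 (-0.79, adjusted p = 0.0097).

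ASA2 averaged 209 ± 20 normalized counts in BL and 205 ± 27 in Kyn, against 222 ± 31 in mock (SD, n = 6 each), and neither single compound passed the test (log2 -0.08 and -0.11, adjusted p = 0.89 and 0.81 by limma). BL+Kyn was lower than BL by a log2 difference of -0.37 (adjusted p = 0.0485), a call at the threshold that ended on leaving out 19 of the 24 libraries in turn, with adjusted p up to 0.18, and by edgeR (0.065) and DESeq2 (0.068). The 5 that did not end it were BL at 12 h replicate 1, BL+Kyn at 24 h replicate 1, BL+Kyn at 48 h replicate 2 and both of mock at 24 h. Against Kyn the difference was -0.33 (adjusted p = 0.068), which passed without BL+Kyn at 24 h replicate 1 (0.0490) or at 48 h replicate 2 (0.0021). ASA2 overlapped between all neighbouring groups when the 12 were ordered by mean, from mock at 24 h (237 ± 54, SD, n = 2) to BL+Kyn at 12 h (156 ± 10).

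ASA1, the copy known for its induction by pathogens and wounding, had a time-averaged difference from mock of 0.05 in BL+Kyn (95% interval -0.18 to 0.29), 0.16 in Kyn (-0.07 to 0.40) and -0.10 in BL (-0.34 to 0.13). Its highest values were 134 and 147 normalized counts in Kyn at 12 h, against 93.8 and 85.1 in mock at 12 h. They did not overlap, but the log2 difference of 0.65 had an adjusted p of 0.15 by limma, with 1.28% of all genes called in that comparison. That difference was called without replicate 1 or replicate 2 of BL+Kyn at 48 h (adjusted p = 0.047 and 0.049). The next highest group was BL+Kyn at 24 h with 124 and 133, against 107 and 113 in mock. The log2 ratio of ASA2 to ASA1 was below its mock mean in 6 of 6 BL+Kyn libraries, by -0.50 on average. It ran from -1.05 at 24 h replicate 2 to -0.03 at 48 h replicate 2, close to the mock mean. An exact permutation test within times gave a two-sided p of 0.0185, with an adjusted p of 0.14 over the 15 ratios described next. A different response of the copies is not shown after this correction, which no single ratio could have passed.

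For 5 steps a gene of the set has a 2nd copy or relative, and the ratio of the copies was compared with mock in each of the 3 treatments, giving 15 exact permutation tests of which the smallest possible p is 0.00926. These ratios were chosen after the values had been seen. No ratio passed after adjustment over the 15. A single ratio could not have passed it, since even the smallest possible exact p was adjusted to 0.14. The adjusted values therefore cannot decide whether the copies of 1 pair responded differently. The lowest exact p values were all in BL+Kyn: INS over TSA1 differed by -0.43 (exact p = 0.00926, the smallest possible, adjusted p = 0.14), ASA2 over ASA1 by -0.50, and ASB2 over ASB1 by -0.52 (p = 0.037, adjusted p = 0.19), each lower in 6 of 6 libraries. The shift was uneven. ASB2 over ASB1 ran from -1.46 at 24 h replicate 2 to -0.02 at 48 h replicate 2, close to the mock mean. TSB2 over TSB1 and IGPS2 over IGPS differed by -0.05 and -0.13 in BL+Kyn.

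**Figure D4:**
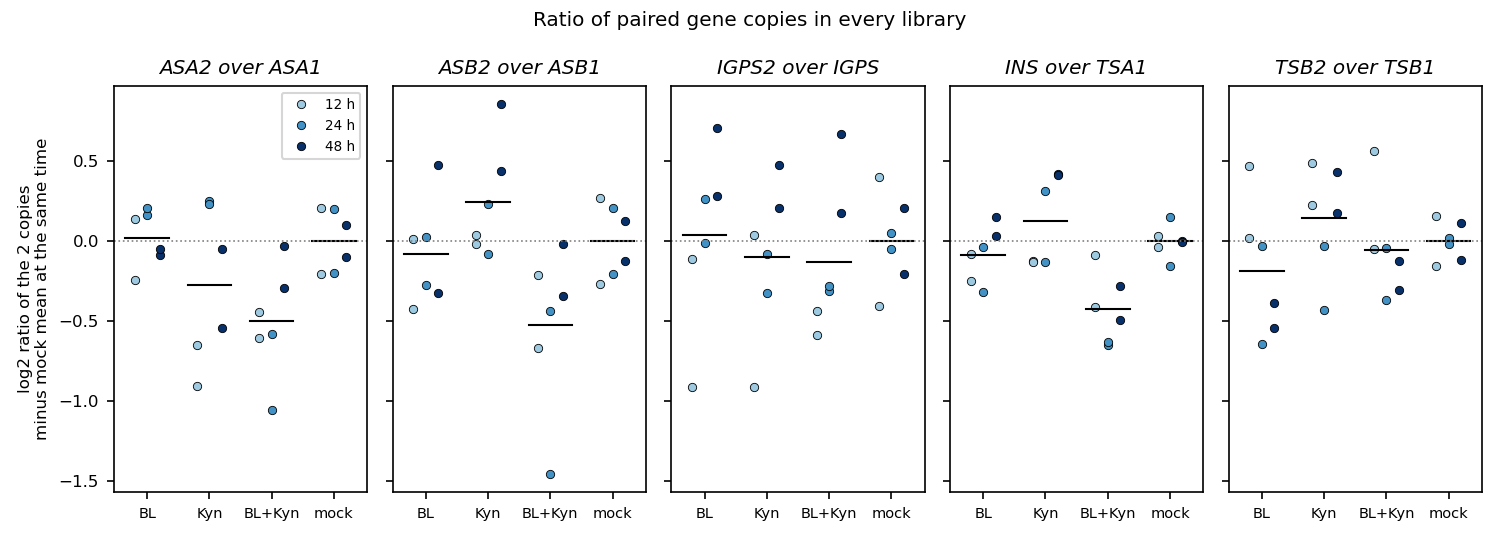
Log2 ratio of 2 related genes in every library, minus the mean of that ratio in mock at the same time, for 5 pairs (points coloured by time, bar for the mean of 6 libraries). In BL+Kyn all 6 points lie below 0 for ASA2 over ASA1, ASB2 over ASB1 and INS over TSA1, and points on both sides of 0 are seen for IGPS2 over IGPS and TSB2 over TSB1.

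ASB1, the beta subunit that supplies ammonia from glutamine, ranged from 83.1 to 132 normalized counts in BL+Kyn (median 117), from 71.2 to 115 in Kyn (median 103) and from 83.7 to 130 in BL (median 104), against 91.5 to 129 in mock (median 111). All treatments overlapped with mock, and the time-averaged differences were -0.02, -0.19 and -0.07. Reads from its shared windows cannot be assigned to ASB1 alone. ASB2, another beta subunit gene, had 183 and 169 normalized counts in BL+Kyn at 12 h, 182 and 99.2 at 24 h, and 122 and 232 at 48 h, against 203 to 276 in the 6 mock libraries. All BL+Kyn libraries but 48 h replicate 2 lay below the lowest mock library. It was lower in BL+Kyn than in mock by a log2 difference of -0.55 (SE 0.15, adjusted p = 0.0086) and lower than in Kyn by -0.60 (adjusted p = 0.0062), and both calls held under all 34 alternatives tried.

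PAT1, the phosphoribosyltransferase, ranged from 70.2 to 107 normalized counts in BL+Kyn, from 70.5 to 91.0 in Kyn and from 55.8 to 86.8 in BL, against 47.5 to 107 in mock. All treatments overlapped with mock at every time, and the time-averaged differences of 0.15, 0.06 and -0.0030 had adjusted p of 0.47, 0.92 and 1.00 by limma. IGPS, the indole glycerol phosphate synthase, averaged 615 ± 65 normalized counts in BL+Kyn, 617 ± 63 in Kyn and 525 ± 29 in BL, against 562 ± 45 in mock (SD, n = 6 each). In Kyn 5 of 6 libraries exceeded the highest mock library, yet the time-averaged difference of 0.13 was no call (adjusted p = 0.49 by limma).

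Only the comparison of BL+Kyn with BL reached the threshold for IGPS, with a log2 difference of 0.22 (SE 0.08, adjusted p = 0.035 by limma). In that comparison 3 of the 9 genes were called (MYB51 and IGPS higher, ASA2 lower), where 27.7% of all genes were called. The IGPS call ended without either BL library at 12 h (adjusted p = 0.072 and 0.0547) or at 24 h (0.086 and 0.0501), without BL at 48 h replicate 1 (0.083), without replicate 2 of BL+Kyn at 12 h (0.091), at 24 h (0.105) or at 48 h (0.081), without both libraries rich in green markers (0.066) and under quantile normalization (0.061). Of BL+Kyn against Kyn, where 30.3% of all genes were called, none of the 9 was called by limma, edgeR or DESeq2, with 2 at an unadjusted p under 0.05.

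Tryptophan synthase showed no called change. TSA1, its alpha subunit, averaged 505 ± 62 normalized counts in BL+Kyn, 466 ± 50 in Kyn and 430 ± 50 in BL, against 479 ± 20 in mock (SD, n = 6 each). BL+Kyn was above BL by 0.23 (adjusted p = 0.065), a difference that passed without BL at 24 h replicate 1 (0.017) and without BL+Kyn at 48 h replicate 1 (0.041). In BL 6 of 6 libraries lay below the mock mean of their time, by -0.16 on average (95% interval -0.35 to 0.03, adjusted p = 0.52 by limma). TSB1, the beta subunit, averaged 567 ± 67 in BL+Kyn, 597 ± 45 in Kyn and 547 ± 31 in BL, against 595 ± 33 in mock, with time-averaged differences of -0.08, 0.0030 and -0.12. It had the smallest spread between replicates of the 9 (pooled SD 0.11 on the log2 scale, against 0.38 for MYB51), and the lowest bound of its 3 intervals was -0.28.

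INS, a cytosolic relative of TSA1 that makes free indole, was lower in BL+Kyn, with 181 and 144 normalized counts at 12 h, 158 and 181 at 24 h, and 150 and 154 at 48 h, against 185 to 256 in the 6 mock libraries. BL+Kyn and mock did not overlap at any time. Its log2 difference was -0.36 from mock (SE 0.09, adjusted p = 0.0047) and -0.44 from Kyn (adjusted p = 0.0015), called under all 34 alternatives. In BL alone INS was at -0.25 from mock, no call, with 6 of 6 libraries below the mock mean of their time. BL and mock did not overlap at 12 and 24 h. Of the 8 other tryptophan synthesis genes, ASB2 and INS were lower in BL+Kyn and none was higher (median log2 difference -0.07, all genes -0.0014). Of all genes 17.6% were called lower and 18.7% higher there. None of the 8 was called in time-averaged Kyn or BL, where 4.9% and 1.88% of all genes were. PAI1 to PAI3, the isomerase genes, TSB2 and the distant TSBtype2 ran from -0.19 to 0.09 in BL+Kyn, and IGPS2 was at -0.0023.

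In the test of departure from additivity of BL and Kyn none of the 9 was called by limma, edgeR or DESeq2. TSA1 at 0.28 (95% interval 0.0091 to 0.54) and MYB34 at 0.29 (0.0021 to 0.57) on the log2 scale were the 2 with an unadjusted p under 0.05, and 3.98% of all genes were called. None of the 9 was called for a response changing with time by any of these tools. By limma 0.0% of all genes were called in that test for BL (0 genes, with 788 at an unadjusted p under 0.05 and 0 by edgeR and 2 by DESeq2) and 0.0% for Kyn (0 genes, 595 at an unadjusted p under 0.05, 0 by edgeR and by DESeq2), against 1.16% for BL+Kyn. Of the 9, 1 had an unadjusted p under 0.05 in Kyn and none did in BL or BL+Kyn. At single times no gene of the 9 was called in BL by limma, edgeR or DESeq2 (0, 1 and 0 at an unadjusted p under 0.05), where 0.095%, 0.106% and 0.216% of all genes were called at 12, 24 and 48 h, or in Kyn (2, 1 and 1 at an unadjusted p under 0.05), where 1.28%, 0.871% and 1.17% were. In the authors' deposited table none of the 9 had an adjusted p under 0.05 in BL or Kyn at any time or in BL+Kyn at 12 h, and 1 did at 24 h and 1 at 48 h in BL+Kyn.

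Of the users of tryptophan, TAA1 averaged 34.9 ± 15.7 normalized counts in BL+Kyn, 40.1 ± 9.1 in Kyn and 79.8 ± 8.9 in BL, against 70.4 ± 9.4 in mock (SD, n = 6 each). Averaged over the times it was lower in BL+Kyn (log2 -1.12) and in Kyn (-0.82), where 36.3% and 4.9% of all genes were called. At 12, 24 and 48 h TAA1 was at -0.47, -1.1 and -1.78 in BL+Kyn (adjusted p = 0.38, 0.0081 and 0.00013 by limma). In Kyn it was at -0.99, -1.02 and -0.45, with no call at a single time (adjusted p = 0.086, 0.087 and 0.75). Of the 5 listed users 4 were tested. CYP79B3 was lower in time-averaged Kyn (-0.60, adjusted p = 0.0030 by limma), with -1.22 at 48 h (adjusted p = 0.0032), but at 12 and 24 h only the average was -0.29 (adjusted p = 0.45). In BL+Kyn its time average of -0.13 (adjusted p = 0.40) covers opposite calls, lower at 12 h (-0.74, adjusted p = 0.040) and higher at 24 h (0.62, adjusted p = 0.040), with -0.28 at 48 h (adjusted p = 0.34), and a response that changed with time (adjusted p = 0.047). CYP79B2 was higher in BL+Kyn at 24 h (0.88, adjusted p = 0.0019), with -0.31 at 12 h and -0.12 at 48 h that were no calls, and its response also changed with time (adjusted p = 0.025). Its time-averaged differences of 0.15 in BL+Kyn, -0.21 in Kyn and -0.13 in BL were no calls. The calls of TAA1, CYP79B2 and CYP79B3 at single times, and those of CYP79B2 and CYP79B3 over time, were not recomputed with libraries left out. Of the 7 other glucosinolate regulators 5 were tested, and averaged over the times MYC4 was higher in BL+Kyn (0.34, adjusted p = 0.010) while MYC2, which works with the MYB factors, was lower in Kyn (-0.35, adjusted p = 0.011), except without Kyn at 24 h replicate 2 (0.053) or mock at 48 h replicate 1 (0.056). The medians over these regulators were -0.09 in BL+Kyn and -0.35 in Kyn, and over the 4 users 0.0090 and -0.41. None of either list was called in time-averaged BL, where 1.88% of all genes were.

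Markers of root cell types moved in time-averaged BL+Kyn as well, where 18.7% of all genes were called higher and 17.6% lower. Of 8 root markers 2 were higher (CASP1 at 0.70 and CASP2 at 0.49, of the endodermal barrier) and 5 were lower, among them EXPA7 at -2.21 and COBL9 at -1.15, of root hairs, and PLT2 at -1.49, of the meristem. Their part in the changes of MYB51, ASA2, ASB2 and INS was not tested. No green tissue marker was called in BL+Kyn, but this test could not decide whether these markers changed. The 2 libraries rich in green markers enter the shared estimate of the spread and widen it for these genes. The log2 differences of the green markers from mock ran from -0.12 (LHCB1.1) to 1.70 (GLO1). The SE ran from 0.35 (PSBO1) to 0.94 (GLO1).

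Over the 12 group means of log2 values, the 21 pairs among the 7 enzyme genes had Pearson correlations from -0.34 (ASA2 with PAT1) to 0.59, with a median of 0.22, 7 of them below 0. ASA2 went with ASB2 (0.73) and INS (0.59) and had an r of -0.69 with MYB51. The values of all genes come from the same libraries, so these correlations are a description. The genes whose group means were most like the mean standardized profile of the 7 enzyme genes, among 16086 compared, were AT1G18910 (r = 0.88), GONST1 (0.85), AT1G65020 (0.79), CLPB3 (0.78) and ABCG22 (0.78). They were picked as the highest of 16086 values over 12 group means, and the level that chance would give was not computed.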

How the data were processed

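CEL-Seq2 libraries of total root RNA, 12 groups of 2, were analysed. Per the submitters' processing notes, the authors worked on TAIR10 with TopHat2 2.1.0, HTSeq 0.6.1 and DESeq2 1.18.1, and with cutadapt 1.10, FastQC 0.11.5 and Trim Galore. How molecular identifiers and strand were handled is not given in the sources used here. The deposited values are normalized counts (a signal, read counts divided by size factors by the authors), beside the authors' log2 fold changes and adjusted p-values. Each library's values were whole multiples of what 1 read is worth (100% within 0.1), so reads were recovered for edgeR 4.0.16 and DESeq2 1.42.0 as alternatives. The main test was limma 3.58.1 (R 4.3.3) with a mean-variance trend on log2(normalized count + 1), for 18948 genes with a mean of at least 5, as 12 group means with Benjamini-Hochberg adjustment, and it was tested on simulated data. Sequences came from RefSeq TAIR10.1. All 9 genes are named in each comparison, with up to 4 called genes of each other list by smallest p. ICS1, ADT2 and CASP2 are named beside these. The genes and lists were chosen with earlier results of these data known.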

Additional observations from a re-analysis of the deposited data

Results flagged for a closer look

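For each of the 9 genes and each treatment, the log2 deviation of the 6 libraries from the mock mean of their time was examined, 27 groups of 6 in all, and 4 held a library far from the other 5. Chance flags about 1 in 20 groups. In BL+Kyn at 48 h, replicate 1 lay apart for ASA1 (-0.50) and MYB34 (-0.72), and replicate 2 lay apart for TSB1 (0.24). In BL at 24 h, replicate 2 lay apart for TSA1 (-0.47).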

How the results depend on the processing

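Among the values of the 9 genes under the alternatives, 2282 kept their side of the threshold, 60 lost a call, 21 gained one and none reversed, and the cause was not tested. Members called, with the range on leaving out 1 library, were 2 (1 to 3) in BL+Kyn, 1 (0 to 2) in Kyn, 0 in BL, 0 for the interaction, 0 (0 to 2) against Kyn, 3 (1 to 3) against BL, 2 (1 to 7) at single times, 0 for change with time and 0 (0 to 1) in mock over time. With no filter the counts were 0 in Kyn and 1 at single times, edgeR gave 0 in Kyn, and DESeq2 gave 1 in mock over time. Without both libraries rich in green markers they were 0 in Kyn and 1 against BL, and at 12 and 24 h only 1 against BL. All genes called were 6887 (5685 to 8027) in BL+Kyn, 929 (693 to 1190) in Kyn, 357 (210 to 581) in BL, 755 (151 to 3086) for the interaction, 5744 (4418 to 7074) against Kyn, 5247 (4004 to 6604) against BL, 219 (37 to 1343) for change with time and 70 (0 to 260) in mock over time. At 12 and 24 h only they were 4297, 582, 149, 20, 2510 and 2599 for the first 6 of these. The interaction gave 342 with no filter, 1360 by DESeq2 and 91 without both libraries rich in green markers, and DESeq2 gave 543 for change with time and 202 in mock over time. Replicate numbers were not treated as pairs in the main test. Correlations of same-numbered deviations had a median of 0.028 and a maximum of 0.53, and 9 of 66 were over 0.1. Whether the numbers stand for pairs in some groups cannot be told from these values. With the replicate number as a block, 1 member (MYB51) was called against Kyn and 7064 genes in BL+Kyn. MYB51, at 11 to 140 reads per library, is the gene that depth limits most.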

Other observations

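Upstream of the branch and averaged over the times, 1 of 10 shikimate pathway genes was higher and 1 lower in BL+Kyn than in mock by limma, with a median log2 difference of 0.06. Of all genes 18.7% were called higher and 17.6% lower in BL+Kyn, 4.9% were called in Kyn and 1.88% in BL. SK2, a shikimate kinase, was lower in BL+Kyn (-0.38, adjusted p = 0.0020) and in Kyn (-0.35, adjusted p = 0.018), and none of the 10 was called in time-averaged BL. The Kyn call of SK2 ended without replicate 2 of Kyn or of mock at any of the 3 times, with adjusted p from 0.053 to 0.070. Of 11 other users of chorismate, 4 were higher and 2 lower in BL+Kyn (median 0.12). ADT4 (0.50), ADT3 (0.32) and ADT5 (0.33), which make phenylalanine, were higher in BL+Kyn. ADT2 of the same family went the other way, at 217 ± 31 normalized counts in BL+Kyn against 271 ± 50 in mock (SD, n = 6 each). ICS2, an isochorismate synthase, was lower in BL+Kyn (-0.97) and in Kyn (-0.95). Its relative ICS1 was higher in BL+Kyn (0.62, adjusted p = 0.012 by limma). In BL ICS2 was at -0.91, of like size but no call (adjusted p = 0.077). ICS2 averaged 40.8 ± 22.6 normalized counts in BL+Kyn, 37.6 ± 8.7 in Kyn and 43.4 ± 23.7 in BL, against 88.3 ± 62.9 in mock (SD, n = 6 each), where it ran from 30.5 to 196. The Kyn call of ICS2 (adjusted p = 0.030) ended without replicate 1 of Kyn at 12, 24 or 48 h, replicate 2 of Kyn at 48 h, replicate 1 of mock at 12, 24 or 48 h, or replicate 2 of mock at 24 h, with adjusted p from 0.051 to 0.111. At 12 and 24 h only, ICS2 was at -0.68 in BL+Kyn (adjusted p = 0.12).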
